A study of Mus musculus with 2 samples.

Results

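Wide accessible regions at gene ends were examined in mouse hematopoietic stem cells that carried either an empty retrovirus or a retrovirus encoding H1C, a linker histone gene now named H1f2. A region was counted when it was 1000 bp or wider in the control list, lay on chromosomes 1 to 19 or X, and came within 1 kb of the start or end of a protein-coding gene in the RefSeq annotation of mouse build GRCm38 (mm10). These criteria gave 436 regions, which is 4.30% of the 10145 control regions at gene ends and 75.6% of the 577 control regions of that width. The control list held 31831 regions on these chromosomes and the H1C list held 13001. Because the regions were chosen by their width in control, the control width, fold, significance and pileup are descriptions of the choice, and the H1C list is the measure that the choice did not use.

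Both groups were cells of the CD48-CD150+LSK surface phenotype from bone marrow of wild-type C57BL/6J mice. The control cells were transduced with pMSCV, which carries no insert, and the other cells with MSCV-H1C, so both had been through sorting and retroviral transduction. Each group was 1 ATAC-seq library from about 1000 cells, amplified for 13 to 16 PCR cycles. How many mice contributed, their age and any pooling of cells were not given in the sources. With 1 library per group there was no test between conditions, and no p-value is given.

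ATAC-seq uses a transposase that cuts open DNA and leaves nucleosome-bound DNA largely uncut. Promoters of widely expressed genes are commonly rich in CpG, the dinucleotide of C followed by G, and hold a stretch free of nucleosomes at the gene start, flanked by positioned nucleosomes on the transcribed side. Linker histones bind the nucleosome where DNA enters and leaves it and favour compact chromatin.

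Most promoters inside the regions were rich in CpG, and 4 are shown because they span the outcomes described here. Ube2d3 encodes a ubiquitin-conjugating enzyme, and its region stayed almost whole in H1C. Sp4 encodes a zinc finger factor that binds GC boxes, and its region was divided into 2. Dcaf10 encodes a substrate receptor of a cullin ubiquitin ligase, and its region was called in control alone. Trim12a, a tripartite motif gene, had the fewest CpG of the promoters whose window lay inside a wide region. Each sequence is the 250 bases before a RefSeq gene start (GRCm38.p6), read 5′ to 3′ on the strand of the gene, with every CpG in capitals. The windows are chr3:135437982-135438231 on the plus strand for Ube2d3, chr12:118301441-118301690 on the minus strand for Sp4, chr4:45341851-45342100 on the plus strand for Dcaf10, and chr7:104315496-104315745 on the minus strand for Trim12a.
Ube2d3: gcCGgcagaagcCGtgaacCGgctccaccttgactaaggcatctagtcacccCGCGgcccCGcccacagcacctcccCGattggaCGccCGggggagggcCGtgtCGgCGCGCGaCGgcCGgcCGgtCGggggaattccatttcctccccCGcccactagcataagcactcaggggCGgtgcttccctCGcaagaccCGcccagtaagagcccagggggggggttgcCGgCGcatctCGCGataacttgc
Sp4: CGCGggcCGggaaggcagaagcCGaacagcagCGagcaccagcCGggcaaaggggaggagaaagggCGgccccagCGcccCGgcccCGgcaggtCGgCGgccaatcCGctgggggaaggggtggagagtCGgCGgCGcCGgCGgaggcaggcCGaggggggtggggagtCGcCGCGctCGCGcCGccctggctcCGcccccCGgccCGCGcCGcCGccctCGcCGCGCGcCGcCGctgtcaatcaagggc
Dcaf10: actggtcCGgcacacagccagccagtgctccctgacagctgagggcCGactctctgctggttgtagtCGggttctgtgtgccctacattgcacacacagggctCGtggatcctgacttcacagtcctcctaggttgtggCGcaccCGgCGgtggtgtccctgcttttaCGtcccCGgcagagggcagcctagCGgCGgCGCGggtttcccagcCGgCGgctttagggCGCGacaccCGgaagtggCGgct
Trim12a: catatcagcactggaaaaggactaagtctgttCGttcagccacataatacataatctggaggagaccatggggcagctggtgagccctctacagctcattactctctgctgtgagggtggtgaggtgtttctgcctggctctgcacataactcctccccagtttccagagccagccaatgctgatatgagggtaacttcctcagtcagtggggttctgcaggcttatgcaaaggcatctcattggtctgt
The Ube2d3 window held 26 CpG and was 69.6% G or C, the Sp4 window 37 CpG and 80%, the Dcaf10 window 19 CpG and 65.6%, and the Trim12a window 1 CpG and 50.8%. The GC box letters GGGCGG, searched on both strands, occurred 4 times in each of the Ube2d3 and Sp4 windows and 0 times in the other two. The CCAAT box letters occurred 2 times in the Trim12a window, 1 time in each of the Ube2d3 and Sp4 windows and 0 times in that of Dcaf10. The ETS letters CCGGAAG occurred 1 time in the Dcaf10 window and 0 times in the others.

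Over 520 listed starts inside the wide regions, of 437 genes, the 300-base promoter window (250 bases before to 50 after the start) held a median of 26 CpG (quartiles 19 and 33) and 65.0% G or C. At 8191 starts inside narrower control regions the medians were 23 CpG and 62% G or C, and at 12334 starts in no control region they were 5 CpG and 51.3%. The observed-to-expected CpG ratio was 0.861 in the wide regions and 0.807 in the narrower ones. GGGCGG was present in 73.8% of the windows in wide regions, 70.3% of those in narrower regions and 46.7% of all 21045 listed starts. TATAAA, the TATA box letters, was present in 5.38%, 5.59% and 12.7% of the same groups. CCGGAAG was present in 18.8%, 23.4% and 11.7%, and CCAAT in 40.2%, 41.2% and 38.5%. All motifs were searched on both strands, and a match describes letters in the window and not a bound site. The promoters of wide regions thus differed much more from promoters outside the control list than from those of narrower control regions. Windows in wide regions with no H1C region held a median of 23 CpG (19 starts), those with 1 H1C region 27 (400 starts) and those with 2 or more 25 (101 starts). GGGCGG was present in 68.4%, 74.25% and 73.3% of these groups, so the 4 printed windows do not stand for their outcomes in this respect.

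Across both lists the depth had to be read from the values, since no read totals are given. The lowest background solved from the values of each list was taken as its genome-wide background. It was 3.99 in control and 4.402 in H1C, and pileup ratios were scaled by the quotient of 1.10. Of 11 stem cell markers 6 had a control region at a gene end (Kit, Ly6a, Slamf1, Hlf, Meis1 and Ptprc), and 0 had one in H1C. Over all 21631 protein-coding genes, control had one at 47.4% and H1C at 34.0%. Of markers of other cell types, control had such a region at 3 of 8 myeloid, 2 of 5 erythroid, 0 of 3 megakaryocyte, 3 of 5 lymphoid, 0 of 3 mast cell, 2 of 4 endothelial and stromal and 2 of 2 epithelial genes, and H1C at S100a8, Tfrc and Cd79a. None of these 41 markers had a region of 1000 bp or wider at its ends, and their part in the values below was not tested.

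In control the wide regions were 1000 to 1778 bp long, with a median of 1101 bp and quartiles of 1048 and 1220 bp. They lay at the ends of 560 genes, 312 at 1 gene and 124 at 2 neighbouring genes. A listed gene start lay inside 353 of them, and 78 held starts on both strands, as divergent promoters do. No listed starts were available for the 12 regions on chromosome 18, or for Rev3l, Setd5, Luc7l2 and Usp9x. The other 83 regions are thus not shown to lack a gene start, and both counts can be too low. The fold, which is the summit pileup over the local background with 1 added to each, had a median of 7.47 and a lowest value of 3.03, and was highest at Utp3, a gene for ribosomal RNA processing, with 13.4. The authors' −log10 p ran from 7.25 to 92.4 (median 40.1) and −log10 q from 4.60 to 86.8 (median 36.2). The summit lay 71 to 1263 bp from the left edge, with a median of 534 bp, or 47.5% of the width. The summit pileup, the number of fragments or reads stacked there, was 20 to 133 with a median of 68.5. The local background had a median of 8.36 and was highest at Socs1, a cytokine signalling inhibitor, with 21.7. Just inside the width bound, Jarid2, Ddx17 and the pair Rnf5 and Agpat1 had 1000 bp in control and 38.8%, 54% and 91.6% of it covered in H1C. Other regions were tied with them at 1000 bp, among them Eef2k, which had no H1C region and so 0% covered. Just outside it, Vdac1, the pair Kif20a and Brd8 and the pair Gabpb2 and Mllt11 had 999 bp and 39.5%, 62.0% and 54.7% covered.

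Nearly all wide regions were still found in the H1C list, over less of their width and with lower summits. At least 1 H1C region overlapped 414 of the 436 (95.0%, exact 95% interval 92.5 to 96.8), against 34.1% of all control regions. Of 9709 narrower gene-end regions 61.5% (60.5 to 62.4) were overlapped, and of 141 wide control regions away from gene ends 88.7% (82.2 to 93.4). The intervals of the 2 wide sets overlap narrowly, and the difference between these sets was not tested. All such intervals take in counting error alone, because there was a single library of each kind and amplified fragments are not independent molecules. One H1C region overlapped 329 of the wide gene-end regions, 84 were overlapped by 2, Rev3l by 3, and 22 by 0.

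Of their 500801 bp in control, 287045 bp (57.3%) lay in an H1C region. The covered share of the width per region had a median of 60.4% (quartiles 39.9% and 75.5%) and reached 99.6%. At least 50% of the width was covered in 285 (65.4%, 60.7 to 69.8), against 27.6% of all control regions. H1C regions covered 90% or more of 34 regions and less than 25% of 43, of which 21 had an H1C region. An H1C region extended past the control edge at 76. An H1C region of 1000 bp or wider was found at 44 of the 436 (10.1%).

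The 500 H1C regions over them were 200 to 1682 bp wide (median 540.5 bp). Their fold was 2.44 to 9.68 (median 5.34), their −log10 p 4.34 to 51.4 (median 18.6) and their −log10 q 1.65 to 46.2 (median 14.8). The summit offset was 15 to 1211 bp (median 210 bp) and the pileup 15 to 82 (median 39). The highest H1C pileup in each of the 414 regions had a median of 43.

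**Figure D1:**
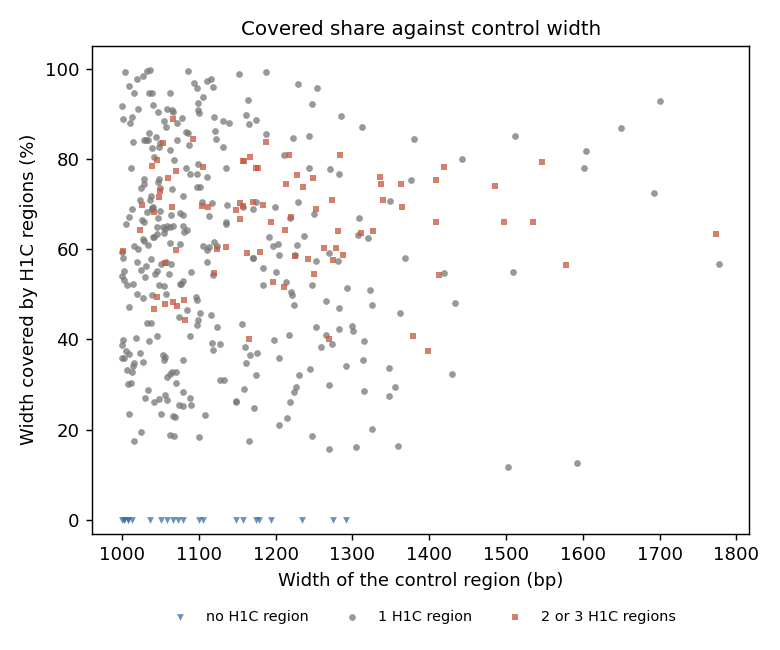
Share of the control width (%) covered by H1C regions against the control width (bp), 1 point for each of the 436 wide gene-end regions, with the number of H1C regions shown by shape. Covered shares spread from 0 to 99.6% at widths near 1000 bp, and the regions with 2 or 3 H1C regions lie between 37.3% and 88.8%.

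The 10 widest regions showed the range of outcomes. The widest lay between Rmi1, a partner of the Bloom helicase, and Hnrnpk, an RNA-binding protein (chr13:58401432-58403209, 1778 bp). Its control summit had a pileup of 80 and a fold of 7.32 (−log10 p 43.9, −log10 q 39.9, summit at 1105 bp), and its single H1C region of 1010 bp had a pileup of 48 and a fold of 6.31 (−log10 p 24.99, −log10 q 20.9). H1C covered 56.8% of it, and 588 bp on the left edge and 180 bp on the right were lost. At Rev3l, the catalytic subunit of DNA polymerase zeta (chr10:39731145-39732917, 1773 bp), the control pileup was 76 with a fold of 7.20, and H1C had 3 regions. They measured 312, 611 and 200 bp, with pileups of 42, 31 and 23 and folds of 5.36, 4.03 and 3.09, and together covered 63.3%. The first H1C summit lay 7 bp from the control summit.

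Ube2d3 (chr3:135437845-135439544, 1700 bp) kept the most width of the 10 widest. Its pileup was 100 in control and 71 in H1C, and 1 H1C region of 1682 bp covered 92.7%. The control region held the promoter printed above together with the gene start and more than 1 kb past it. The region between Cbx5, which encodes HP1 alpha, and Hnrnpa1, another RNA-binding protein (1693 bp), had pileups of 87 and 50 and was 72.5% covered. Nfe2l2, the NRF2 factor of the oxidative stress response (1650 bp), had pileups of 93 and 61 and was 86.9% covered. Setd5, a SET domain protein (1604 bp), had 79 and 49, with 81.7% covered. Ggnbp2 (1601 bp) had 64 and 32, with 77.9% covered. These 4 regions were each met by 1 H1C region over 1200 bp wide.

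Hcfc1, a transcriptional coregulator on the X chromosome (chrX:73966312-73967904, 1593 bp), kept the least of the 10. Its pileup was 44 in control and 23 in H1C, and the single H1C region of 200 bp covered 12.6%, with its summit 1245 bp from the control summit. Picalm, a clathrin assembly gene (1578 bp), had a control pileup of 80 and 2 H1C regions of 377 and 513 bp with pileups of 41 and 50, covering 56.4%. Sp4 (chr12:118300998-118302544, 1547 bp) had a control pileup of 97 and 2 H1C regions of 685 and 541 bp, with pileups of 31 and 62, covering 79.3%. The stretch of the Sp4 promoter printed above lay inside the first, weaker H1C region, and the higher summit lay in the other.

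**Figure D2:**
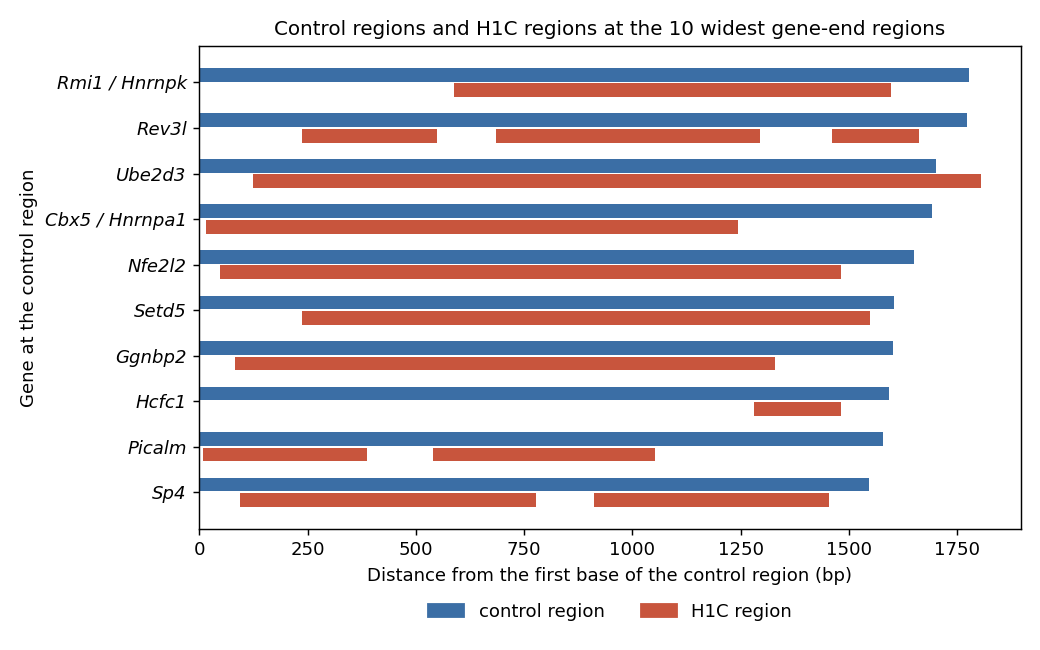
Extent of the 10 widest gene-end regions in control (upper bars) and of the H1C regions over them (lower bars), in bp from the first base of the control region. Rev3l has 3 H1C regions, Picalm and Sp4 have 2, and the H1C bar of Hcfc1 is 200 bp of 1593 bp.

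Division into several H1C regions was much more frequent at wide gene-end regions than over the control list. Of the 436, 85 (19.5%, 15.9 to 23.5) were overlapped by 2 or more H1C regions, against 0.741% of all control regions and 0.917% of narrower gene-end regions. Wide regions away from gene ends were divided at 15.6% (10.0 to 22.7), an interval that overlaps that of the gene-end regions. The share was larger at greater widths, with 10.7% of the 214 regions under 1100 bp, 24.0% of 96 at 1100 to 1200 bp, 28.4% of 102 at 1200 to 1400 bp and 41.7% (22.1 to 63.4) of 24 at 1400 bp or more. A wider region has more room for 2 called regions. The narrowest region in either list is 200 bp, and the smallest space between neighbours in the H1C list is 114 bp. Whether room had a part in the larger shares was not tested.

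The 85 divided regions were met by 171 H1C regions with a median width of 384 bp (200 to 989 bp) and a median pileup of 33. Their covered share had a median of 68.2%, above the 59.3% of the regions with 1 H1C region, and their control pileup a median of 66 against 72. The 86 gaps between the pieces measured 116 to 555 bp, with a median of 201 bp and quartiles of 161 and 293 bp. In 68 gaps the region had a listed start, and 39 of these gaps were centred downstream of it. The median gap centre lay 153 bp downstream.

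After Rev3l, the widest divided regions beyond Picalm and Sp4 were those of Gm34296, H1f2, the pair Zfp668 and Zfp646, the pair Prr14 and Fbrs, Ncl, the pair Utp18 and Mbtd1, and Luc7l2. Gm34296 (1535 bp) had a control pileup of 63 and H1C pileups of 32 and 31, so both pieces were of like height. H1f2, the mouse gene for the overexpressed histone (1498 bp), was divided into pieces of 278 and 712 bp that covered 66.1% of it. The H1C cells also carried the retroviral H1C sequence, and whether its reads map to this region was not tested. Zfp668 and Zfp646, a pair of zinc finger genes (1486 bp), had 64 in control and 36 and 34 in H1C. The region of Prr14 and Fbrs (1419 bp) had 124 in control and 70 and 31 in H1C, the smaller piece being 200 bp wide.

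Ncl, which encodes the nucleolar protein nucleolin (chr1:86358704-86360116, 1413 bp), had a control pileup of 101 and a fold of 8.85. Its H1C regions of 247 and 519 bp had pileups of 30 and 65, and together they covered 54.2%. Utp18, an rRNA processing gene beside Mbtd1 (1409 bp), had 72 in control and 19 and 39 in H1C, with 65.9% covered. Luc7l2, a splicing factor gene (1409 bp), had 85 in control and 47 and 39 in H1C, with 75.2% covered.

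The X chromosome held 6 wide gene-end regions, of which 4 were divided (66.7%, 22.3 to 95.7), and chromosome 9 held 21, of which 0 were divided (upper limit 16.1%). Both chromosomes were picked out after their values were seen. The divided X regions included those of Usp9x, Yipf6 and Zrsr2. Usp9x, a deubiquitinase gene, had 56 in control and 20 and 25 in H1C. Zrsr2, a factor of minor intron splicing, had 46 in control and 18 and 26 in H1C, and Yipf6 had 51 in control and 22 and 20 in H1C.

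Control pileup went with how much of a region was called in H1C, so wide and narrow gene-end regions were compared within bins of pileup. Among regions with a pileup of 41 to 60, 91.7% of 109 wide and 83.2% of 2729 narrower regions were overlapped, and from 61 upward 98.0% or more of both were. In the 31 to 40 bin the shares were 77.8% of 36 and 45.3% of 1712. A wide region offers more bases to overlap, and when the control summit itself had to lie inside an H1C region the shares in that bin were 55.6% (38.1 to 72.1) and 42.7% (40.3 to 45.1). At 41 to 60 they were 84.4% (76.2 to 90.6) and 81.6% (80.1 to 83.1). On that measure the intervals of wide and narrower regions overlap in both bins. At pileups of 30 or less they were apart, with 41.7% (15.2 to 72.3) of 12 wide and 12.4% (11.2 to 13.7) of 2727 narrower regions.

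At pileups of 41 to 100 the covered share went the other way. At pileups of 41 to 60, at least 50% of the width was covered in 45.0% (35.4 to 54.8) of wide and 64.8% (63.0 to 66.6) of narrower regions, and at 61 to 80 in 71.7% (63.0 to 79.3) and 86.6% (84.9 to 88.3). Above 100 both stood at 98.1%. Below 41 the order was mixed. At 31 to 40 these shares were 16.7% of wide and 32.8% of narrower regions, with median covered shares of 32.0% and 0%. At 30 or less they were 25% and 10.6%, with medians of 20.6% and 0%. Median covered shares of wide regions were 42.9% at 41 to 60 and 60.5%, 72.2% and 78.1% in the next 3 bins, and those of narrower regions were 61.5%, 73.3%, 79.2% and 83.1%. Division stayed between 16% and 22.9% of wide regions in these 4 bins and between 0.476% and 1.80% of narrower ones. Over the 436 regions, Spearman's rho of the covered share was 0.59 with control pileup, 0.35 with fold and -0.01 with width. It is a description over regions of the same 2 libraries.

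**Figure D3:**
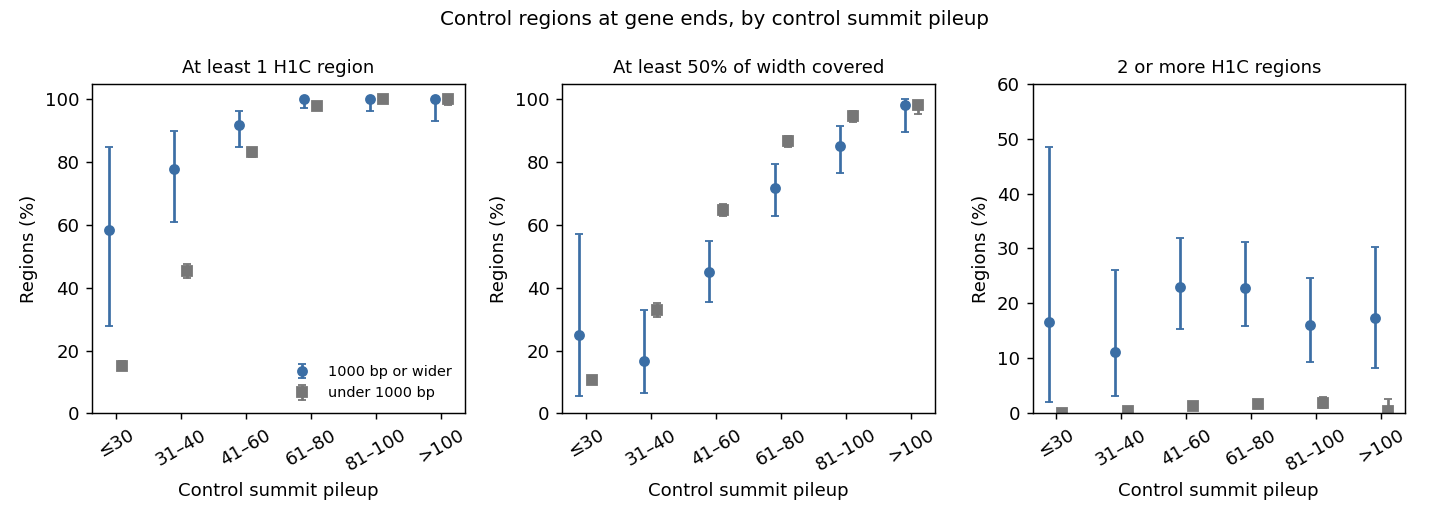
Share of gene-end regions (%) with at least 1 H1C region, with at least 50% of the width covered and with 2 or more H1C regions, in bins of control summit pileup, for regions of 1000 bp or wider (circles) and narrower ones (squares), with exact 95% binomial intervals. From 41 to 100 the wide regions lie below the narrower ones in the middle panel with intervals apart, and in the right panel they lie above them with intervals apart in each of the 6 bins.

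Summits were lower in H1C at nearly every wide region. The scaled log2 ratio of the highest H1C pileup in the region to the control pileup had a median of -0.87 (quartiles -1.03 and -0.70), a ratio of 0.548, and 413 of 414 regions lay below 0. Of all control regions with an H1C region 10184 of 10866 lay below 0, and of narrower gene-end regions 5902 of 5969. On the genome background scaling, the exact 95% interval of the ratio lay below 0 for 365 of the 414 and above 0 for 0. No such count was made for the other sets or on other scalings, and it depends on the scaling. The pileup was at least 1.5 times lower in 368 (88.9%), against 70% of all control regions with an H1C region and 80.9% of such narrower gene-end regions. It was at least 1.5 times higher in 0, against 0.175% of all. Within bins of control pileup, wide and narrower gene-end regions had like shares of lower pileups from 41 upward. These were 83% and 84.1% at 41 to 60, 92.9% and 91.8% at 61 to 80, and 96% and 95.4% at 81 to 100. At 31 to 40 they were 71.4% of 28 and 63.0% of 776. The count of lower regions depends on the scaling. With the local background at shared summits it was 179 (43.2%), and 408 regions lay below 0. On that scaling 36.8% of all control regions with an H1C region were lower, and 42.1% of narrower gene-end ones. Medians were -0.84 at narrower gene-end regions and -0.82 at wide regions away from gene ends, so the medians of all 3 sets were close. The spread of the last set was larger, with an upper quartile of -0.46, and 70.4% of its 125 regions were at least 1.5 times lower. Above a control pileup of 100 its median was -0.12 (16 regions), against -0.90 at wide gene-end regions (52). Those 16 had a median local background of 19.3 and pileups of up to 363, against 11.3 and 133 at the 52. What set the 16 apart was not tested. Choosing regions by a control measure favours a low ratio, and regions without an H1C region have no ratio.

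The lowest ratios included those at Ccsap, a centriole and spindle protein gene (69 in control, 27 in H1C, -1.50), the zinc finger gene Zkscan6 (58 and 23, -1.48), the anchoring protein pair Akap8 and Akap8l (102 and 41, -1.46) and Utp3 (83 and 34, -1.43). Their 95% intervals all lay below 0, the one of Akap8 and Akap8l running from -2.02 to -0.92. That pair nevertheless kept 89.4% of its width, whereas Ccsap kept 30.5%. Loss of height and loss of width therefore did not go together in each region.

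The highest ratio, and the only positive one, was 0.19 (-0.65 to 1.05) at the region shared by Zwilch, a kinetochore gene, and the ribosomal protein gene Rpl4, with pileups of 23 and 29. Memo1 had 30 and 29 (-0.19), Pprc1, a mitochondrial biogenesis coactivator, 62 and 57 (-0.26), Ipo7, a nuclear import receptor, 32 and 29 (-0.28), and Pafah1b1, the LIS1 gene, 61 and 55 (-0.29). The intervals of these 5 include 0. At Pprc1 32.3% of the 1430 bp was covered in H1C.

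**Figure D4:**
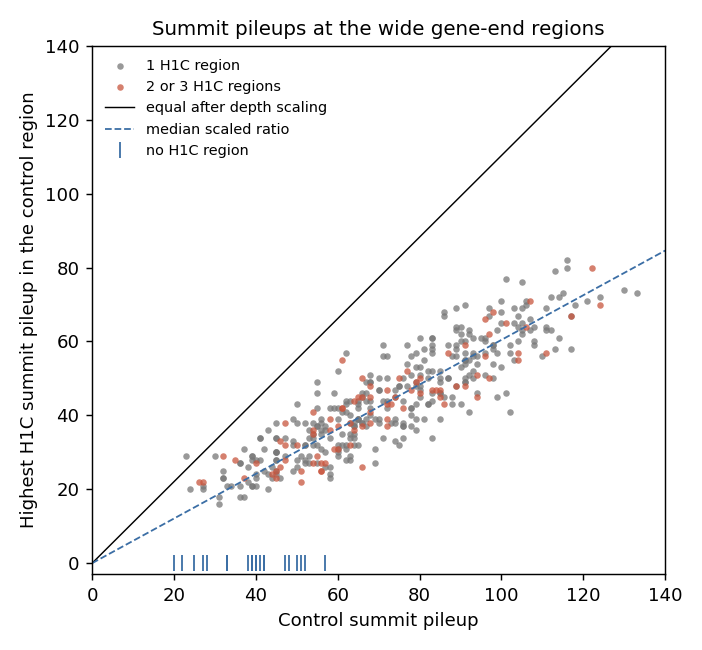
Highest H1C summit pileup in each wide gene-end region against the control summit pileup; the solid line marks equal pileups after depth scaling, the dashed line the median scaled ratio of 0.548, and ticks at the bottom the 22 regions with no H1C region. All points but that of Zwilch and Rpl4 lie below the solid line, and the ticks lie between 20 and 57.

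Among the regions with an H1C region, the smallest covered shares were at Alyref2, an mRNA export factor gene (11.9%), Hcfc1 (12.6%), A630095N17Rik (15.8%), Rdm1, a RAD52 motif gene (16.2%), and Ulk2, an autophagy kinase gene (16.3%). Their pileups were 58, 44, 51, 36 and 31 in control and 24, 23, 29, 27 and 16 in H1C, and each was met by 1 H1C region of 200 to 336 bp. At Alyref2 the H1C summit lay 930 bp from the control summit, and at A630095N17Rik 7 bp. The largest covered shares were at the zinc finger gene Mynn (99.6%), the kinase gene Map3k12 (99.5%), the GC box factor gene Sp1 (99.4%), the repressor gene Zbtb20 (99.3%) and the histone H3K9 demethylase gene Kdm3a (99.3%). Their pileups were 65, 111, 130, 113 and 87 in control and 39, 64, 74, 79 and 59 in H1C. The 5 had nearly the same extent in both lists at summits that were lower in H1C.

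The 22 regions with no H1C region had control pileups of 20 to 57 (median 39.5), in the lower part of the range, and folds of 3.38 to 7.52. The strongest was at Tut4, which encodes an RNA uridylyltransferase (chr4:108459756-108460929, 1174 bp), with a pileup of 57, a fold of 6.43 and −log10 q of 25.8. The nearest H1C region lay 118175 bp away. Eef2k, the elongation factor 2 kinase gene, had 52, and the pair Vps16 and Pced1a, the first a vesicle tethering gene, had 51. Smad7, an inhibitor of TGF-beta signalling, had 48 and Dcaf10 had 47 with a fold of 7.52. An H1C region lay within 1000 bp of 2 of the 22, among them Kcmf1 (pileup 22, at 99 bp). The median distance was 20262 bp.

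The widest of these 22 were at Mzt2 (1292 bp, pileup 20), Ube2r2 (1275 bp, 25), Vps16 and Pced1a (1234 bp), Stam (1194 bp, 39), Gas2l3 (1178 bp, 28) and Tut4, followed by Samd8 (1158 bp, 38), Fam53b (1149 bp, 33), Smad7 (1105 bp) and Ppp1r3e (1100 bp, 41). All 22 had pileups below the median of 68.5 over the 436 regions.

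The summit of control was mostly still a summit in H1C. The nearest H1C summit lay within 100 bp of the control summit in 338 of 414 regions (81.6%, 77.6 to 85.3), against 83.5% of all control regions with an H1C region and 88.6% of 5969 narrower gene-end regions. The median shift was 27 bp, and the control summit lay inside an H1C region in 396. Centred on the control summit, H1C regions covered 90.6% of the 436 regions in the 50 bp bin centred 25 bp away and 50.6% in the bin at 275 bp. At 725 bp they covered 33.6% of the wide regions that reached that far. Bases were lost on both edges in 328 of the 414 regions and on 1 edge in 84.

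The position relative to the gene start could be read for the 353 regions with a listed start. In the 119 that held several, the start nearest to the control summit was used, a choice that itself favours a short distance. In the 78 with starts on both strands, the summit thus also set which side counted as upstream. The control summit lay upstream of the start in 261, at a median of 56 bp upstream over all 353 (quartiles 137 bp upstream and 6 bp downstream). Of the bases upstream of the start that were called in control, 66.0% were also called in H1C, and of those downstream 48.5%. The upstream share was the higher in 231 regions, the downstream share in 107, and 15 were equal. Of the wide regions that reached a given distance in control, H1C covered 88.4% in the bin 25 bp upstream, 63.0% at 125 bp and 41.6% at 325 bp downstream, and 61.1% at 325 bp upstream. At 625 bp it covered 50% upstream and 27.6% downstream.

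In 275 regions with starts on 1 strand only, the shares were 64.9% upstream and 46.7% downstream, and in 78 with starts on both strands 69.2% and 56.4%. Narrower gene-end regions showed the same order, with 62.0% upstream and 47.2% downstream, so the asymmetry was shared with them. It also went with where the summit lay. In the 261 regions with an upstream summit the shares were 67.5% and 43.2%, and in the other 92 they were 59.3% and 58.3%.

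**Figure D5:**
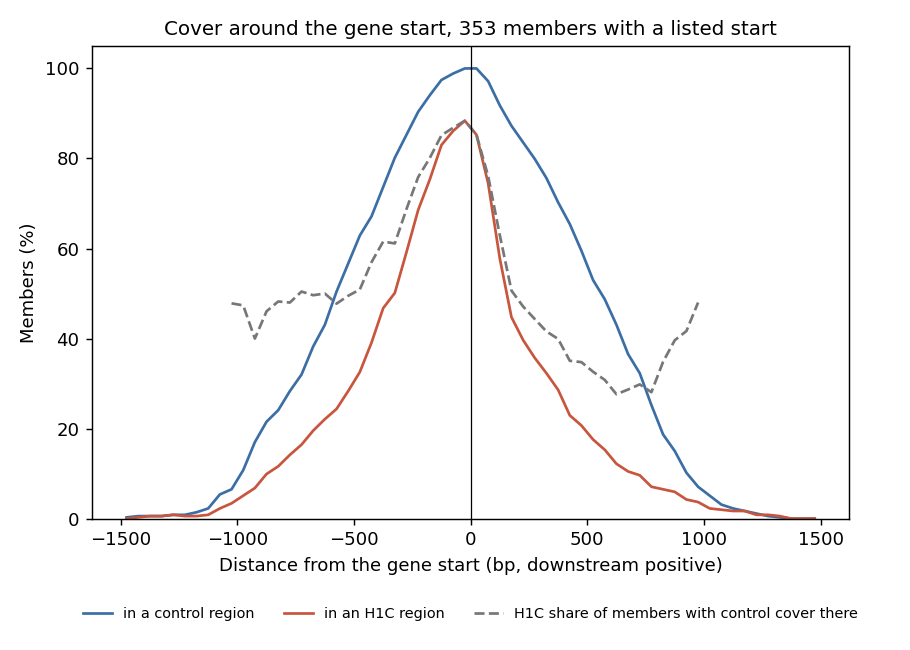
Share of 353 wide gene-end regions (%) lying in a control region or an H1C region in 50 bp bins around the gene start (bp, downstream positive), and, dashed, the H1C share of those with control cover in that bin. The H1C curve peaks at the start and falls faster downstream, where the dashed line reaches 27.6% at 625 bp, against 50% at the same distance upstream.

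By gene function, wide regions were found at 560 (5.46%) of the 10263 protein-coding genes at whose ends control had a region. The 9 lists of genes described here were drawn up with earlier results of these data known, so their counts are descriptions. Splicing and RNA-binding genes had a wide region at 11 of 42 (26.2%), translation factors and chaperones at 9 of 34 (26.5%), and RNA polymerase II, transcription factor and Mediator genes at 11 of 45 (24.4%). Ubiquitin and proteasome genes had 5 of 32 (15.6%). Blood transcription factors and stem cell regulators had 4 of 40 (10%), chromatin regulators and chaperones 4 of 49 (8.16%), ribosomal proteins 3 of 38 (7.89%), histones 1 of 27 (3.70%) and cell cycle and replication genes 1 of 45 (2.22%). Every wide region of these lists had an H1C region, close to the 95.0% of all wide gene-end regions.

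The median ratio was -0.75 over the 11 splicing regions, -0.75 over the 9 translation and chaperone regions and -0.76 over the 11 transcription regions, beside -0.87 over all. Median covered shares were 68%, 75.4% and 62.3%, beside 60.4%. Of the splicing genes, Srsf7 (58 in control, 39 in H1C) was divided and 69.4% covered, as Luc7l2 was. Of the translation factors and chaperones, the initiation factor gene Eif4g2 had 97 and 67 with 75.4% covered, and Hsp90b1, an endoplasmic reticulum chaperone gene, had 107 and 66 with 51.0%. Dnaja1, a co-chaperone gene beside Aptx, had 75 and 32 (-1.37, interval -2.02 to -0.76) and yet was 87.1% covered. The polyubiquitin gene Ubb, which stands in that list and in the ubiquitin list, had 78 and 51 and only 27.4% covered.

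Of the transcription genes, Polr2a, the largest subunit of RNA polymerase II, had 75 and 50 in 2 pieces. Atf4, a stress response factor, had 90 and 62, Mnt, a MAX partner, 85 and 46, and Creb1, the cyclic AMP response factor, 80 and 53, each with 1 H1C region covering 58.7% to 61.6%. Of the ubiquitin genes, Cul1, a cullin scaffold, had 27 and 22 in 2 pieces that covered 64.2%. The chromatin list held Ncl, the histone chaperone gene Daxx (89 and 59, 42.4% covered), the Polycomb gene Eed (64 and 44, divided, 66.6%) and the deacetylase gene Hdac2 (45 and 38, 56.4%). The replication helicase gene Mcm4, beside Prkdc, had 78 and 42 with 67.6% covered.

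Of the blood genes, Klf13, a zinc finger factor, had 116 and 82, the highest H1C pileup of all 414 regions, with 45.8% covered. Elf1, an ETS factor beside Wbp4, had 54 and 27 and was divided, with 40.1% covered. Dusp1, a MAP kinase phosphatase gene, had 54 and 38 with 70.4% covered, and Etv6, an ETS repressor of blood stem cells, had 46 and 33, divided, with 78.1%. Their ratios were -0.64, -1.14, -0.65 and -0.62, and the interval of Etv6 includes 0. The ribosomal protein genes were Rps19 (99 and 57, 87.9% covered), Rpl7 (43 and 20, 26.3%) and Rpl4.

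Seen from the H1C list, wide regions were rarer, and most of their length lay in control regions. H1C had 58 gene-end regions of 1000 bp or wider, 0.877% of its 6617 gene-end regions, against 4.30% in control. Of these, 44 lay over a wide control region. A median of 99.7% of their length was called in control, with a minimum of 55.1%. Even in this set, chosen by its width in H1C, the median pileup was 51 in H1C and 90.5 in control, and the scaled pileup was higher in H1C at 1 of 58. Over all gene-end regions the median width was 497 bp in control against 384 bp in H1C.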

How the data were processed

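ATAC-seq was measured in 1 control and 1 H1C library, grouped by the treatment label. The submitters' processing notes name mm10, MACS2, featureCounts, Picard, Bowtie2 2.2.9 and Trim Galore 0.4.4. Settings, duplicate handling and any cut-site shift are not given in the sources used here. Regions had been called separately in each library. Per the deposited lists, the fold is a ratio of summit pileup to local background, each plus 1. The authors' peak caller also gave the deposited score, −log10 p and −log10 q, with lowest −log10 q of 1.31 in control and 1.34 in H1C. Those lowest values and the local background limit how wide a region is called, so width depends on depth.

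Pileups were solved for from Poisson −log10 p and fold together, accepted as whole within a relative tolerance of 0.0001 (32005 of 32005 control and 13155 of 13156 H1C regions). Ratios were scaled by the genome background. Shares have exact Clopper-Pearson and pileup ratios exact conditional binomial 95% intervals. Tested on simulated data, 1913 of 1913 pileups and 300 of 300 covered lengths were recovered.

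The regions and lists were chosen with earlier results of these data known. Named by rule were the 10 widest regions, up to 10 with 0 and with most H1C regions, 5 at each extreme of covered share and ratio, up to 4 per list, and 3 on each side of the width bound. The X chromosome regions, Trim12a, Dcaf10, Socs1 and those with 0 H1C regions beyond the widest 10 were named after their values were seen. Gene ends came from a RefSeq gene table, and strand was read for the starts listed in a RefSeq promoter table. A few regions picked by this rule are left out of the text. Alternatives covered width, window, overlap, significance, joining and scaling. The software was matplotlib 3.10.9, scipy 1.17.1, pandas 2.3.3, numpy 2.4.6 and Python 3.11.15.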

Additional observations from a re-analysis of the deposited data

How the results depend on the processing

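No paired analysis was possible because there was 1 library per group. Of 37 alternatives for 8 summary results, 19 stayed within the interval of the value or, for the count of regions, within 1.5 times. The other 18 moved, and 0 changed sign. The covered share upstream minus downstream of the start had no interval, and its alternatives were judged by size and sign alone. Widths of at least 800 and 1500 bp gave 1389 and 14 regions. The share with an H1C region was 100% at 1500 bp, 90.8% with H1C regions of −log10 q of at least 5, 65.4% with at least 50% of the width covered, and 90.8% with the control summit inside an H1C region. The median covered share was 69.3% at 1500 bp. Divided regions were 10.2% at 800 bp, 28.6% at 1500 bp, 13.1% at the stricter −log10 q and 15.8% with gaps of 150 bp or less joined. The median log2 ratio was -0.55 when scaled by local background at shared summits (a ratio of 0.886, partly made of the regions' own reads) and -0.73 with no scaling. The share at least 1.5 times lower was 43.2% and 71.0% under the same scalings. H1C summits lay within 50 bp of the control summit in 66.2% and within 200 bp in 87.4%. The covered share upstream minus downstream of the start, 17.5 percentage points, was 0.949 with the control summit at or downstream of the start. That last alternative, the one on 1 strand, the one with the control summit inside and both for the share at least 1.5 times lower were chosen after seeing the data. The cause of these moves was not tested beyond the construction of each alternative. Of 358 alternatives for 190 values of single named regions, 345 stayed within their interval and 13 moved, all of them covered shares that fell at the stricter −log10 q, where Hcfc1, Alyref2, Ulk2 and the pair Rpl7 and Rdh10 had 0% and Rev3l 52.1%. The interval of a single covered share counted each base of the region as an independent draw, which neighbouring bases are not. Depth limits width, although by the genome-wide background (3.99 in control, 4.402 in H1C) H1C was not the shallower library. Without read totals, the share of reads inside regions is not known for either library. An edge below the calling threshold in H1C is not shown to be closed.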

Other observations

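Of the 58 wide H1C gene-end regions, 14 lay over no wide control region. The widest control region under each measured 539 to 995 bp, and all control regions together covered a median of 86.2% of their length. The widest was at 4931408C20Rik (1460 bp in H1C), where 2 control regions were met by 1 H1C region. Its pileup was 33 in control and 43 in H1C, a scaled log2 ratio of 0.24 and the only positive one of the 58. Psip1, which encodes the chromatin reader LEDGF, and Atp2b1, a calcium pump gene, were the other two at which 2 control regions were spanned by 1 H1C region. The Psip1 pileup was 43 in control and 25 in H1C, and that of Atp2b1 was 90 and 43. Sqstm1, the autophagy receptor p62, was 1098 bp wide in H1C and 779 bp in control, and its pileup was 65 in control and 36 in H1C. Ptp4a1, a phosphatase gene, was 1090 bp wide in H1C and 747 bp in control, with 82 and 52. Cdv3 was 1024 bp in H1C and 741 bp in control, with 106 and 51. At Sqstm1, Ptp4a1 and Cdv3 the H1C region was thus the wider one although its summit was the lower. These genes were chosen after their values were seen.

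Wide regions at the ends of 2 genes were covered to at least 50% of their width in 73.4% of 124, and those at 1 gene in 62.2% of 312. The exact 95% intervals, 64.7 to 80.9 and 56.5 to 67.6, overlap. Divided regions were 19.4% and 19.6% of the 2 sets. Outside chromosomes 1 to 19 and X, 12 control and 5 H1C regions were 1000 bp or wider, and they were not analysed further.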
